A study of Homo sapiens with 8 samples.

Results

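Interferon-stimulated genes are the messages that cells raise when an interferon binds its receptor. A list of 38 of them was followed in MDA-MB-231 cells, and 37 had a probe annotated to that gene alone, with 53 such probes in all, among 15971 genes and 33446 probes on the arrays. For each gene the probe with the highest mean log2 intensity over the 8 arrays was used. STAT2 was not analysed here, and DDX58 is given under its current symbol, RIGI.

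MDA-MB-231 is a line from a human breast carcinoma whose cells have a mesenchymal look. The miR-148b group was transfected with 75 nM of a miR-148b precursor by means of the reagent RNAiFect, and the control group with a negative control, and RNA was taken 48 h later from both. Each group has 4 arrays of 1 dye, Cy3, which the labels call biological replicates. Whether these came from separate cultures is not stated beyond that, so the p-values measure the spread between these arrays. A code number stands in every title and a plus mark in some, and no label explains either. Code 1 stands on miR-148b replicates 1 and 2 and on control replicate 1. Code 2 stands on miR-148b replicate 3 and control replicates 2 and 3, and code 3 on both arrays numbered 4. Marked with a plus are miR-148b replicates 2 and 3 and control replicate 3. The code 1 arrays stood apart from the rest. Over the 30582 probes with a value on every array, code 1 took 48.28% of the variance. The plus mark took 25.28% and the treatment 12.29%, each taken alone. Code 1 and plus mark together took 73.58%, and 79.86% with treatment added. Array medians lay between 370.2 and 404 intensity units, and the table gives no detection call, so differences of probes far below these medians are less certain. All 37 genes had a value on every array.

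Type I interferons bind the receptor IFNAR1 with IFNAR2, whose kinases JAK1 and TYK2 pass the signal on. A complex that contains IRF9 then binds the interferon-stimulated response element (ISRE) of its target promoters. Interferon gamma acts on promoters through another element, the gamma-activated sequence (GAS). The products of the targets bind or degrade viral RNA, block virus entry and release, tag proteins with ISG15, and call in lymphocytes, and some tumour cell lines transcribe part of the set without added interferon.

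The sequences that bear on these genes are the ISRE letters of their promoters. Windows of 250 bases before to 50 bases after an annotated gene start were taken from RefSeq, assembly GRCh38.p14, for 28 of the 37 genes. The ISRE was searched as GAAA, any 2 bases and GAAA again, and the GAS as TTCNNNGAA, each on both strands, with overlapping matches counted. Stretches of 8 genes with ISRE letters are shown because they span the code 1 differences of the 21 genes with such letters, given later. Each was also chosen to lie mostly before the start, and they stand in order of that difference from the lowest. Letters run 5′ to 3′ on the gene's strand, and capitals mark the ISRE matches, which read TTTC, any 2 bases and TTTC where the match is on the opposite strand. The stretches are chr14:94110608-94110670 (+) for IFI27, chr2:6877612-6877661 (+) for RSAD2, chr4:76023689-76023738 (-) for CXCL10, chr1:1013364-1013419 (+) for ISG15, chr10:89392487-89392549 (+) for IFIT1, chr11:320866-320932 (-) for IFITM3, chr2:37156957-37157006 (-) for EIF2AK2 and chr10:89414529-89414593 (+) for IFIT5. The active strand of the transfected microRNA, hsa-miR-148b-3p at chr12:54337278-54337299 (+), is shown with them, its seed (bases 2 to 8) in capitals.
IFI27: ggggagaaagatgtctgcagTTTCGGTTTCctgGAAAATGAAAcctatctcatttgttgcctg
RSAD2: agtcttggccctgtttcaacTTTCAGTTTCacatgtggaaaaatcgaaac
CXCL10: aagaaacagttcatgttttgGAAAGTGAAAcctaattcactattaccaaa
ISG15: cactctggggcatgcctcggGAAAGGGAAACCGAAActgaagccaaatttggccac
IFIT1: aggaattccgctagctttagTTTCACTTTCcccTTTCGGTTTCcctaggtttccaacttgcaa
IFITM3: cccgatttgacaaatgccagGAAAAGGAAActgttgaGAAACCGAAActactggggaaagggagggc
EIF2AK2: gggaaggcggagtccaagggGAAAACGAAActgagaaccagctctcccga
IFIT5: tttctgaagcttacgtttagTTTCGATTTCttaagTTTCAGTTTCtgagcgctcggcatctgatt
hsa-miR-148b-3p: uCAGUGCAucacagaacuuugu

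Most of the genes were lower on the code 1 arrays than on arrays of the other codes, by up to 64.4-fold for IFI27. In a limma fit over all probes with terms for code 1, plus mark and treatment, 22 of 37 passed an adjusted p of 0.05 as lower (59.5%), against 14.3% of all probes and 16.8% of genes with 1 probe each. The genes called higher were IFIT5, IRF7 and OAS1, 3 of 37 (8.11%), against 14.1% of all probes and 15.3% of genes. At the series' own thresholds of 1.5-fold with a false discovery rate of 16%, 22 were lower and 2 higher, against 12.7% and 11.6% of probes and 14.2% and 11.7% of genes. The median log2 difference of the 37 was -0.72, and that of all probes was -0.03. The 3 code 1 arrays all lay below the other 5 for 23 genes (62.2%) and all above them for IRF7, where 17.4% and 15.8% of genes did so. The map of all genes by array shows the split.

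**Figure D1:**
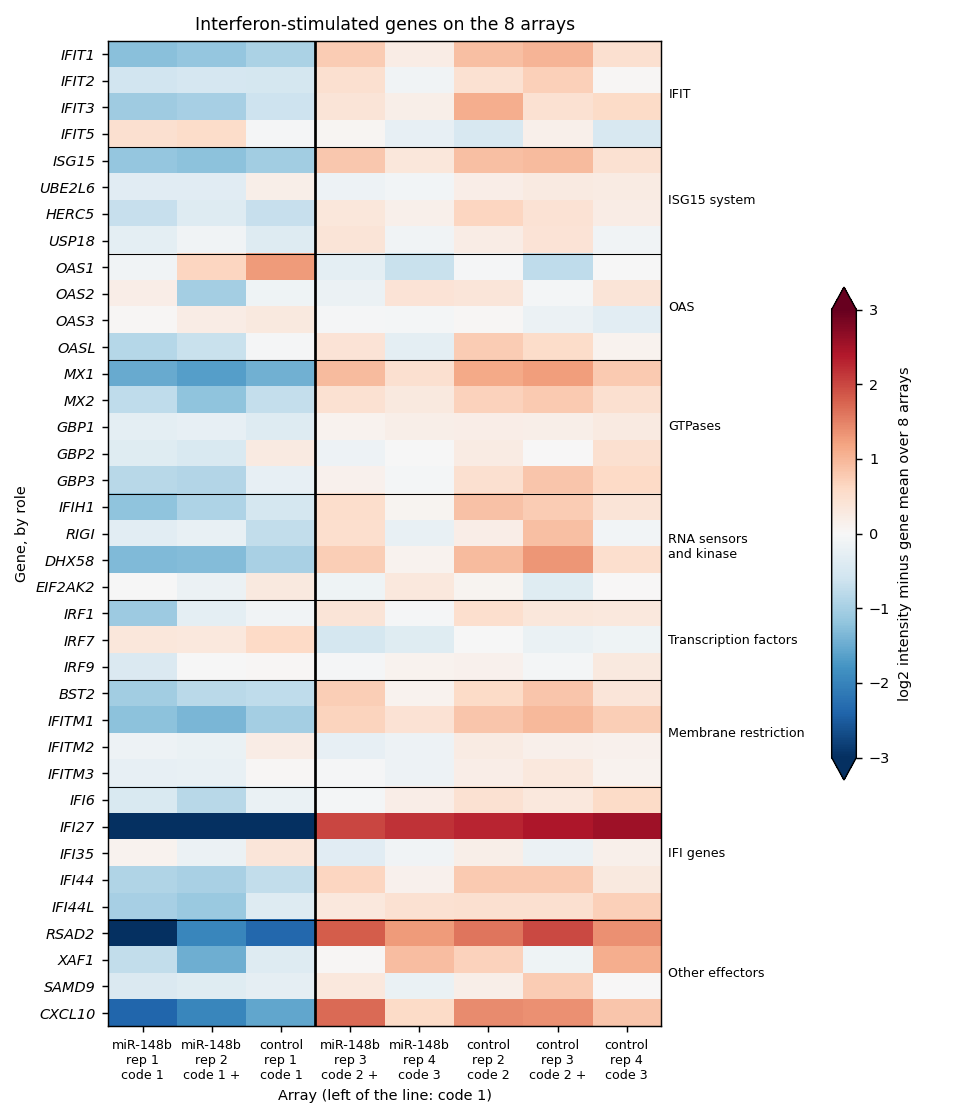
Log2 intensity of each of the 37 interferon-stimulated genes (rows, by role) on each of the 8 arrays (columns), minus that gene's mean over the arrays. Blue is lower and red higher, and the colour scale ends at 3 on either side. Columns left of the line are the code 1 arrays, where 30 of 37 fitted differences were below zero.

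The same direction held inside each treatment group, as values without a test. Among the control arrays, replicate 1 alone carries code 1, and its median log2 difference over the 37 genes from the other 3 was -0.88, with 29 genes lower and 8 higher. Among the miR-148b arrays, the 2 of code 1 differed from the other 2 by a median of -0.78, with 31 lower and 6 higher. The medians over all genes were -0.04 and -0.01. Both splits use the 8 arrays of the fit and do not add evidence apart from it.

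The IFIT genes encode RNA-binding proteins that hold back translation of foreign messages, and 3 of 4 were lower on code 1. IFIT1, which binds RNA lacking the host's cap methylation, had 3569 and 3857 in miR-148b replicates 1 and 2 and 4440 in control replicate 1, all of code 1. On the other codes it had 9970 and 14544 in miR-148b replicates 4 and 3, and 11907, 15991 and 17261 in control replicates 4, 2 and 3. Every code 1 array lay below every other array, a log2 difference of -1.67 ± 0.15 (SE, adjusted p = 0.000587). IFIT3, a binding partner of IFIT1, had 758.1 and 794.6 in miR-148b and 1023 in control on code 1, against 1804 and 2065 in miR-148b and 2191, 2364 and 3369 in control on the others. The code 1 arrays were again the 3 lowest, by -1.33 ± 0.17 (adjusted p = 0.00252). IFIT2 was lower by -0.76 ± 0.16 (adjusted p = 0.0136). That call was lost when control replicate 1 (0.0886) or replicate 2 (0.0661) or 3 (0.052) of miR-148b was left out. It was also lost on the 5 arrays without a plus mark (0.102). The second IFIT2 probe passed at -0.97 (0.00209), with groups that overlapped. IFIT5, which binds RNA ends on its own, went the other way at 0.52 ± 0.14 (adjusted p = 0.0339). That call was lost without any array other than miR-148b replicate 1 or control replicate 3, its second probe had 0.14 (adjusted p = 0.456), and the mean of both probes had 0.33 (0.0859).

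Of the 4 genes of the ISG15 system, 2 were lower on code 1, the modifier and its ligase. ISG15, the ubiquitin-like protein that is joined to other proteins, had 17069 and 16433 in miR-148b and 18749 in control on the code 1 arrays. On the other codes it had 48350 and 66959 in miR-148b and 52796, 71587 and 73806 in control. All code 1 arrays were lower than all others, by 3.36-fold (log2 -1.75 ± 0.15, adjusted p = 0.000622). HERC5, the ligase that attaches ISG15, had -0.90 ± 0.15 (adjusted p = 0.00636), and -0.78 without control replicate 1 (adjusted p = 0.0592). USP18, which removes ISG15 and damps the receptor, did not pass at -0.38 ± 0.13 (adjusted p = 0.0667). It passed in 6 alternatives (0.0278 to 0.0466), and its second probe passed at -0.44 (0.0442). UBE2L6, the conjugating enzyme of the pathway, did not pass on code 1 either, at -0.16 with a 95% interval from -0.39 to 0.08.

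The OAS genes showed no common direction. OAS1, OAS2 and OAS3 make the oligoadenylates that switch on RNase L, and OASL lacks that activity. OAS1 was dim, with 63.5 and 106.7 in miR-148b and 165.9 in control on code 1, against 43.3 and 55.7 in miR-148b and 40.7, 67.1 and 67.7 in control on the others. The groups overlapped, and the fitted difference of 1.08 ± 0.31 (adjusted p = 0.0437) was 0.74 without control replicate 1 (adjusted p = 0.256). The call was also lost without miR-148b replicate 2 (0.167) or 4 (0.146) and without control replicate 2 (0.0732) or 4 (0.0734), and a pseudocount of 50 gave 0.67 (0.0272). OAS2, also dim at 37.5 to 101.7, passed at -0.57 ± 0.16 (adjusted p = 0.042) and lost the call without any array other than control replicate 3 or miR-148b replicate 1. It had -0.37 without miR-148b replicate 2 and -0.32 with a pseudocount of 50. The second OAS2 probe, dim at 27.9 to 69.5 units, passed at -0.84 (adjusted p = 0.015). The mean of both OAS2 probes had -0.7 (0.0087). OASL had 1244 and 1430 in miR-148b and 2206 in control on code 1, against 1829 and 3013 in miR-148b and 2427, 3323 and 3849 in control on the others. Control replicate 1 lay inside the range of the other codes, and the difference of -0.64 ± 0.21 did not pass (adjusted p = 0.0679), though it did in 4 alternatives (0.0248 to 0.0399). OAS3 had 0.29, with an interval from -0.04 to 0.62.

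Among the GTPases, 4 of 5 were lower on code 1. MX1, which traps viral ribonucleoproteins, had 889.7 and 805.0 in miR-148b and 929.3 in control on code 1. On the other codes MX1 had 3515 and 4870 in miR-148b and 4325, 5582 and 6078 in control. The 2 sets of arrays were far apart, a 5.09-fold difference (log2 -2.35 ± 0.16, adjusted p = 0.000233). MX2, its paralog that acts on retroviral capsids, had -1.37 ± 0.15 (adjusted p = 0.00145). The guanylate-binding proteins act on intracellular pathogens and answer chiefly to interferon gamma. GBP3 had 2870 and 2793 in miR-148b and 4325 in control on code 1, against 4932 and 5597 in miR-148b and 7181, 7722 and 9137 in control on the others. The code 1 arrays were the 3 lowest, by -0.87 ± 0.11 (adjusted p = 0.0023), and inside each code the miR-148b arrays were below the control arrays. GBP1 passed at -0.49 ± 0.10 (adjusted p = 0.0154) and lost the call without control replicate 1 (0.115) or miR-148b replicate 4 (0.0852). The second GBP1 probe passed at -0.45 (0.0183). GBP2 did not pass at -0.21, with an interval from -0.50 to 0.09.

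Of the 3 cytosolic RNA helicases, 2 were lower on code 1, and the RNA-dependent kinase was not. DHX58, known as LGP2, which tunes the other helicases, had 503.2 and 510.6 in miR-148b and 637.0 in control on code 1. On the other codes it had 1349 and 2089 in miR-148b and 1774, 2410 and 3117 in control. No code 1 array reached the others, and the difference was -1.74 ± 0.17 (adjusted p = 0.000876). IFIH1, the sensor of long double-stranded RNA, was lower by -1.26 ± 0.16 (adjusted p = 0.00216). RIGI, the sensor of RNA 5′ ends, had -0.62 ± 0.19 and did not pass (adjusted p = 0.0551), although its 3 code 1 arrays, at 3102 to 4421, lay below the others, at 4432 to 9675. RIGI passed in 8 alternatives (adjusted p = 0.00788 to 0.0478), the lowest p being that without miR-148b replicate 1 (-0.80). EIF2AK2, the kinase PKR that stops translation, had 0.0023, with an interval from -0.33 to 0.33, and its groups overlapped.

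The 3 transcription factors gave 1 lower, 1 higher and 1 not called. IRF7, the factor that amplifies interferon production, had 4304 and 4272 in miR-148b and 5153 in control on code 1, against 2646 and 2382 in miR-148b and 2966, 3136 and 3377 in control on the others. It was the only gene of the 37 with all code 1 arrays above all others, by 0.73 ± 0.10 (adjusted p = 0.00301), while the mean of its probes, of which the second was dim at 25.7 to 70 units, gave 0.56 (adjusted p = 0.102). IRF1, a factor induced by interferon gamma, had 497.4 and 858.3 in miR-148b and 985.3 in control on code 1, against 1029 and 1371 in miR-148b and 1306, 1339 and 1488 in control on the others. The groups did not overlap, but control replicate 1 and miR-148b replicate 4 nearly met. The difference of -0.66 ± 0.20 passed narrowly (adjusted p = 0.0488) and lost its call without any array other than control replicate 3, and after median centring (0.0631). IRF9, the DNA-binding part of the type I complex, had -0.19, with an interval from -0.57 to 0.19.

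Of the 4 membrane restriction factors, 2 were lower on code 1. IFITM1, which blocks fusion of viruses at the cell surface, had 1372 and 1252 in miR-148b and 1594 in control on code 1, against 4413 and 5152 in miR-148b and 5376, 5734 and 6409 in control on the others. The code 1 arrays were lower throughout, by 3.61-fold (log2 -1.85 ± 0.11, adjusted p = 0.000166). BST2, or tetherin, which holds budding virions at the membrane, had -1.30 ± 0.12 (adjusted p = 0.000806). The close paralogs of IFITM1 did not follow it, with 0.02 for IFITM2 (interval from -0.21 to 0.25) and -0.14 for IFITM3 (from -0.37 to 0.09). Paralogs share sequence, and how far the probes tell these 3 messages apart was not tested.

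Among the genes named IFI, 4 of 5 were lower, with the largest difference of all 37. IFI27, a small protein of mitochondrial and nuclear membranes that marks interferon exposure in blood, had 168.1 and 157.1 in miR-148b and 227.7 in control on code 1. On the other codes it had 10226 and 11502 in miR-148b and 12534, 13778 and 14987 in control. The arrays formed 2 levels with nothing between them, a 64.4-fold difference (log2 -6.01 ± 0.11, adjusted p = 8.38e-06), and a second IFI27 probe had -5.91. IFI44, IFI44L and IFI6 had -1.31, -1.25 and -0.72 (adjusted p = 0.00222, 0.00141 and 0.00311), with IFI44L dim at 42 to 150.1 units and at -0.77 with a pseudocount of 50. IFI35, which binds other interferon-induced proteins, did not pass at 0.20 (interval from -0.03 to 0.43).

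The remaining effectors held the next largest differences, and 3 of 4 passed. RSAD2, or viperin, which makes a chain-terminating nucleotide, had 9.43 and 32.9 in miR-148b and 25.1 in control on code 1, against 311.8 and 453.6 in miR-148b and 331.3, 393.0 and 507.8 in control on the others. Both sets were clear of each other, by 17.4-fold (log2 -4.12 ± 0.29, adjusted p = 0.000268). CXCL10, the chemokine that draws in activated T cells, was 7.5 to 13.2 units on code 1 and 57.9 to 127.0 on the others, a difference of -3.01 ± 0.26 (adjusted p = 0.000549). The code 1 levels of both genes lie far below the array medians, and with a pseudocount of 50 the differences were -2.54 for RSAD2 (adjusted p = 2.85e-06) and -1.16 for CXCL10 (adjusted p = 0.000935). A second RSAD2 probe, with 1 empty cell, had -2.89 (adjusted p = 0.000586). XAF1, which opposes the apoptosis inhibitor XIAP, had -1.43 ± 0.15 (adjusted p = 0.00108). SAMD9, a brake on virus growth, had -0.45 and did not pass (adjusted p = 0.0537), although it did in 8 alternatives (adjusted p = 0.0138 to 0.0494), among them that without miR-148b replicate 1 (-0.54, 0.0299). Of its 3 further probes, those with -0.80 and -0.78 passed (0.00363 and 0.0104), and that with -0.44 did not.

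Of the 22 calls, 17 stood in every alternative that gave values for all 37 genes, and GBP1, HERC5, IFIT2, IRF1 and OAS2 were lost in some. All 16 further probes of these genes had the sign of the probe used. Without control replicate 1, the sole control array of code 1, 17 genes were called lower in place of 22. The share of all probes called in that setting is not given here, so this fall cannot be set against theirs.

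ISRE letters stood in the window of 21 of the 28 genes with a sequence (75.0%), against 3.57% of 35116 windows in the table and 3.98% of 12600 measured genes. GAS letters stood in 9 of 28 (32.1%), against 7.66% of windows and 8.68% of measured genes. Of the 21 with ISRE letters, 16 were called lower on code 1, with a median log2 difference of -1.26. Of the 7 without them, XAF1 and IRF1 were called lower, and the median was -0.19. Letters and calls did not go together in every gene. IFIT5 has several matches and was higher on code 1, IFITM3 and EIF2AK2 carry the matches printed earlier and did not pass, and XAF1 was lower with no match in these windows. A match of letters is a description of the window and not a binding site.

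The study's own question was which messages miR-148b changes. In the same fit, 0 of the 37 genes passed an adjusted p of 0.05 or the series' thresholds for miR-148b minus control, as was the case for 0% of all 33446 probes. The smallest adjusted p of the genes was 0.257, for GBP3, which was also the smallest of all probes. At an unadjusted p of 0.05, 15 of 37 were lower (40.5%) and 0 higher, against 6.31% of probes lower and 5.77% higher, and 7.59% and 5.47% of genes with 1 probe each. The fitted difference was below zero for 33 genes and above it for 4, with a median of -0.32, where that of all probes was -0.01. In bulk RNA, fewer cells that express a gene and less RNA per cell cannot be told apart. The plot of both fitted differences sets the 2 terms side by side.

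**Figure D2:**
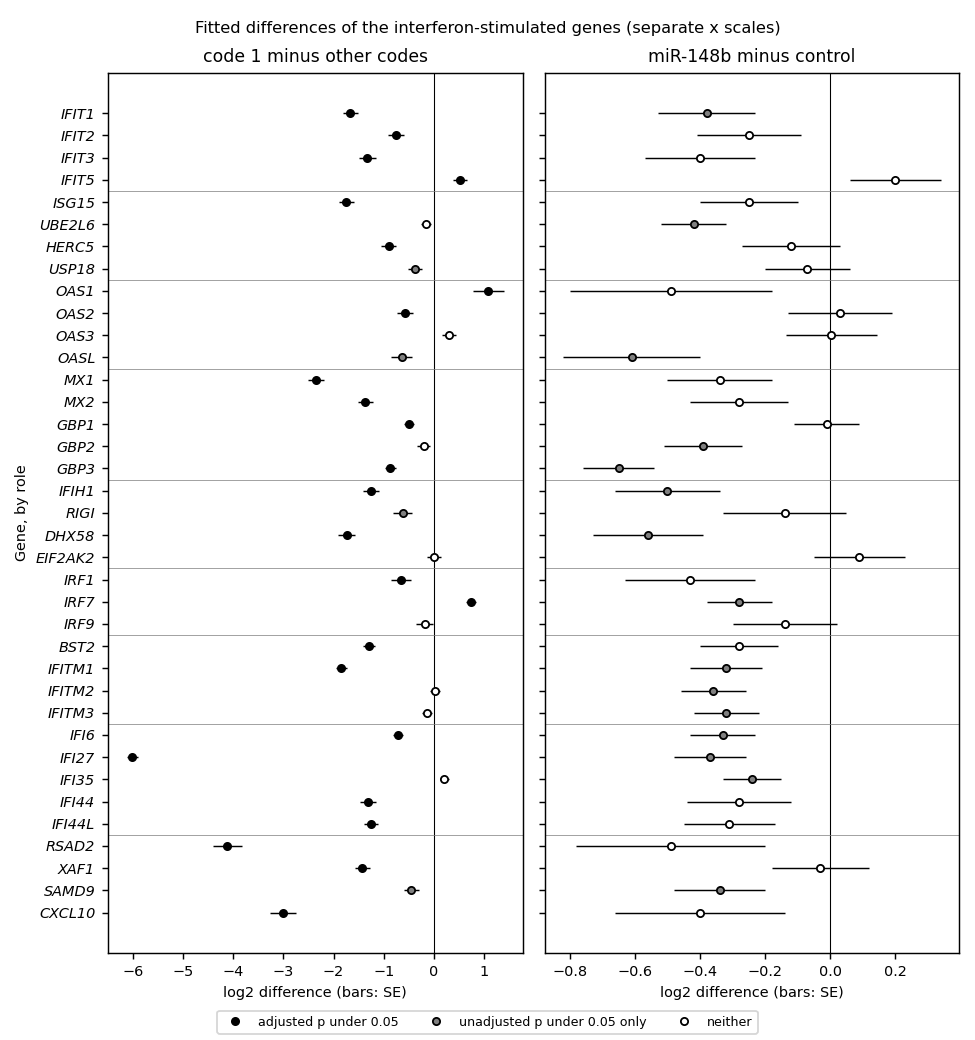
Fitted log2 difference of each gene, by role, for code 1 minus other codes (left) and miR-148b minus control (right), with bars of 1 SE. The x scales differ: code 1 differences reach -6.01 for IFI27, and treatment differences reach -0.65 for GBP3. Filled points passed an adjusted p of 0.05, grey points an unadjusted p of 0.05 alone.

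Replicates 1, 3 and 4 hold an array of each group with the same code and plus mark, so each gives a difference free of both labels. Over these 3 pairs, 25 of 37 genes were lower with miR-148b in every pair (67.6%) and 0 were higher in every pair, against 20.7% and 17.5% of genes. HERC5 counts among the 25 with -0.0015 in the replicate 1 pair. The median of the 37 was -0.29 in the code 1 pair, -0.16 in the code 2 pair and -0.26 in the code 3 pair, with 32, 30 and 33 genes below zero. All genes had medians of 0.03, -0.04 and -0.01 in these pairs. These pairs are 6 of the 8 arrays of the fit and do not add evidence apart from it.

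**Figure D3:**
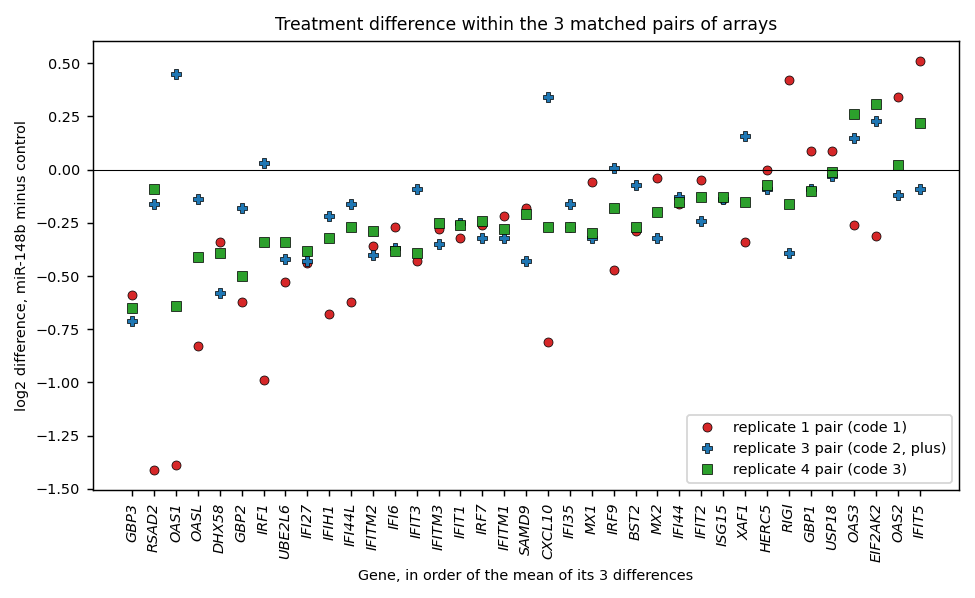
Log2 difference, miR-148b minus control, of each gene (x axis) in the 3 pairs of arrays that share code and plus mark. Genes run in order of the mean of their 3 differences, and 25 of 37 had all points below zero.

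GBP3 had the largest treatment difference, at -0.65 ± 0.11, a 1.57-fold lower level with an interval from -0.91 to -0.39. Its pair differences were -0.59, -0.71 and -0.65, close to each other in all codes, and its second probe had -0.74. GBP3 alone passed the series' thresholds under some settings, with an adjusted p of 0.0792 without the dimmest 50% of probes, 0.115 with a pseudocount of 50, 0.123 with limma's trend and 0.159 with 1 probe per gene. GBP2 had 665.9 to 901.8 units with miR-148b and 925.0 to 1271 in control, without overlap, and a difference of -0.39 (adjusted p = 0.338). GBP1 had -0.01, with an interval from -0.26 to 0.24, and MX1 and MX2 had -0.34 and -0.28.

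The 4 groups of values without overlap between treatments belonged to UBE2L6, GBP2, IFITM2 and IFITM3 (10.8% of 37), against 2.41% of genes lower and 1.59% higher. UBE2L6 had 785.6, 786.7, 903.8 and 934.7 in miR-148b replicates 1 to 4, against 1133, 1149, 1207 and 1187 in control replicates 1 to 4. The highest UBE2L6 value with miR-148b, 934.7, lay below the lowest in control, 1133. Inside the miR-148b group, replicates 1 and 2, of code 1, were the lowest. The difference was -0.42 ± 0.10 (interval from -0.66 to -0.18, adjusted p = 0.281). IFITM2 had 8987, 8682, 8344 and 8966 with miR-148b, against 11527, 11827, 10993 and 10937 in control. The highest miR-148b array was below the lowest control array, with -0.36 ± 0.10 (adjusted p = 0.296). For IFITM3 the ranges were 11885 to 13708 with miR-148b and 14472 to 17481 in control, with -0.32 ± 0.10 (adjusted p = 0.328). None of the 4 was called on code 1, and none passed the adjusted threshold for treatment.

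**Figure D4:**
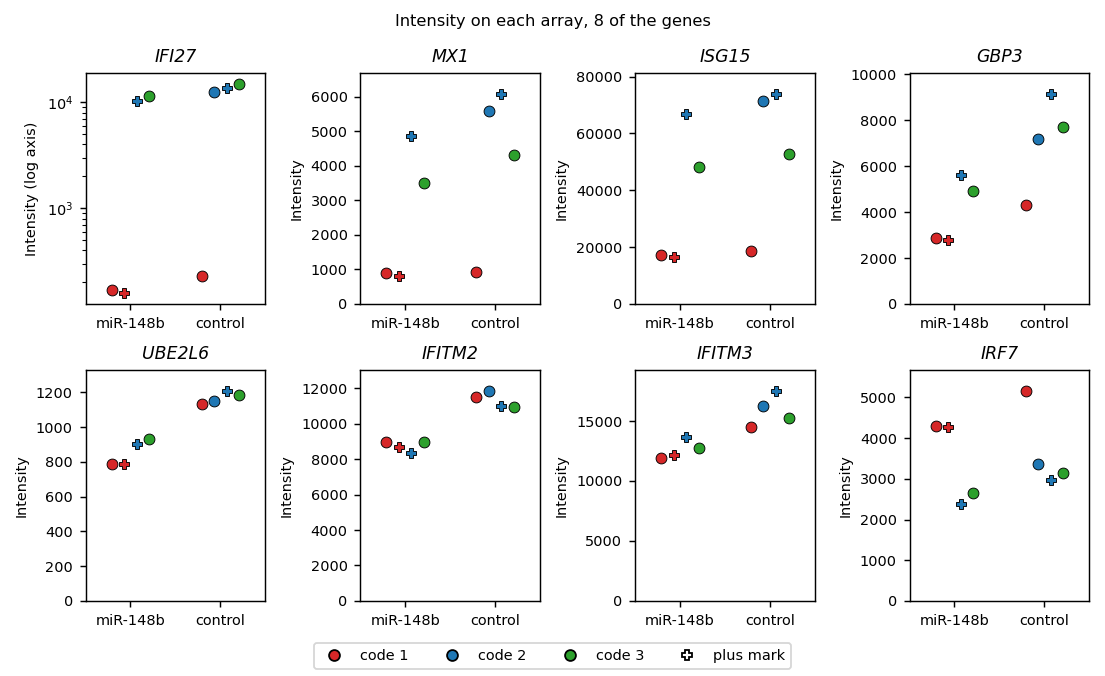
Intensity of 8 interferon-stimulated genes on each array, miR-148b left and control right in each panel, with colour for the code and a cross for the plus mark. The IFI27 axis is logarithmic and the others start at 0. IFI27, MX1 and ISG15 split by code 1, and UBE2L6, IFITM2 and IFITM3 split by treatment.

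In the other roles the treatment differences ran from clearly below zero to slightly above it, and none passed. Of the RNA sensors, DHX58 had -0.56 ± 0.17 (interval from -0.97 to -0.16) and IFIH1 -0.50 ± 0.16, while RIGI had -0.14 and EIF2AK2 0.09, the last 2 with signs that turned in some settings. OASL had -0.61 ± 0.21, with pair differences of -0.83, -0.14 and -0.41. OAS1 had -0.49 with an interval from -1.24 to 0.26, and its pairs gave -1.39, 0.45 and -0.64, so the replicate 3 pair went the other way. IFIT1 and IFIT3 had -0.38 and -0.40, and IFIT5 was the gene with the highest difference, at 0.20 (interval from -0.13 to 0.53). IRF1 had -0.43, of which the replicate 1 pair gave -0.99 and the replicate 3 pair 0.03, while IRF7 had -0.28 ± 0.10 and was lower in all 3 pairs. IFITM1 had -0.32, BST2 -0.28, IFI6 -0.33 and IFI35 -0.24.

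The 6 genes with the largest code 1 differences were all below zero for treatment. IFI27 had -0.37 ± 0.11 with treatment (interval from -0.64 to -0.09), and pair differences of -0.44, -0.43 and -0.38. ISG15 had -0.25 ± 0.15 (interval from -0.62 to 0.12), with -0.14, -0.14 and -0.13 in the pairs. RSAD2 had -0.49 ± 0.29, where the replicate 1 pair, of the dimmest values, gave -1.41 and the others -0.16 and -0.09. CXCL10 had -0.40 ± 0.26, and its replicate 3 pair gave 0.34. MX1 had -0.34 ± 0.16 and IFITM1 -0.32 ± 0.11. HERC5, further down that order, had -0.12. XAF1 had -0.03 on the probe used, while its other 2 probes had -0.59 ± 0.15 (interval from -0.95 to -0.24, adjusted p = 0.287) and -0.23 ± 0.24, so its probes disagree in size.

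Set by their code 1 call, the 22 genes called lower had a median treatment difference of -0.32, from -0.65 to 0.03, with 21 below zero and 7 lower at an unadjusted p of 0.05. The 12 genes not called on code 1 had a median of -0.28, from -0.61 to 0.09, with 10 below zero and 7 at that unadjusted p. The 3 called higher had a median of -0.28. Over genes with 1 probe each, 7.59% were lower with miR-148b at an unadjusted p of 0.05. These groups of genes were not tested against each other. Both terms come from the same 8 arrays, and the code 1 arrays hold 2 of miR-148b and 1 of control. Left without terms for code 1 and plus mark, the median treatment difference was -0.50, and without the 3 code 1 arrays it was -0.29.

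Whether the treatment difference depended on code 1 was tested with an interaction term. None of the 37 genes passed, the smallest adjusted p was 0.991, and 0 reached an unadjusted p of 0.05, against 2.4% of probes below and 1.87% above. With 2 arrays against 1 inside code 1, such a term is imprecise, with an SE of 0.34 for ISG15 and 0.24 for GBP3. For the plus mark, OAS2 (-0.71 ± 0.16, adjusted p = 0.0333) and XAF1 (-0.93 ± 0.15, adjusted p = 0.0127) were lower and 0 genes were higher, against 9.53% and 7.05% of probes, and the median of the 37 was 0.11. The second OAS2 probe had -0.02 (adjusted p = 0.936), and the further XAF1 probes had 0.34 (0.15) and -1.01 (0.0379), so neither call held on all probes of its gene.

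The upstream genes were read beside the targets. Of 9 listed ligands 3 were measured, all dim: IFNB1 had 5.37 to 11.4 units where it had a value, with -0.02 on code 1, IFNL2 had -0.43, and IFNL1 was lower by -1.21 (adjusted p = 0.0373) at 6 to 37 units. Over genes with 1 probe each, 16.8% were lower on code 1 and 15.3% higher. Of 9 measured receptor and signalling genes, 3 were lower (33.3%) and 1 higher (11.1%). The lower ones were IFNGR2, a chain of the gamma receptor, at -1.15 ± 0.09 (adjusted p = 0.000447), IL10RB, shared by the lambda receptor, at -1.09 ± 0.21 (0.015), and IFNAR1, of the type I receptor, at -0.94 ± 0.11 (0.00176). TYK2 was higher at 0.46 (0.0329). Of 11 measured sensing genes, 4 were lower (36.4%) and 1 higher (9.09%). The furthest were IRF5 at -1.58 ± 0.13 (0.00051) and the kinase IKBKE at -1.58 ± 0.45 (0.0418). TICAM1 at -0.80 and CGAS at -0.60 were the other lower ones, and TLR3 at 0.80 was the higher one. IFNAR1, TYK2, TICAM1, CGAS and TLR3 were named after their values were seen. Of the 5 inhibitors, SOCS1 was lower at -1.54 ± 0.11 (0.000313) and SOCS3 higher at 1.02 ± 0.11 (0.00114). That is 20% each way, near the shares of all genes. For treatment, 0 genes of these 4 lists passed, and the furthest receptor and sensing genes were IFNAR2 (0.95), STAT3 (0.53), CGAS (0.50) and TLR3 (-0.49). IFNAR2 was dim at 12.1 to 48.5 units, with an interval from 0.3 to 1.6, so its difference is less certain.

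Of another 41 measured interferon-induced genes, 12 were lower on code 1 (29.3%) and 4 higher (9.76%), against 16.8% and 15.3% of genes with 1 probe each, and the median was -0.15. The higher ones, named after their values were seen, were TRIM34 (0.75), SP110 (0.72), TRIM5 (0.59) and PNPT1 (0.43). CXCL11, a chemokine related to CXCL10, had 8.95 and 20.2 in miR-148b and 10.2 in control on code 1, and 197.4 to 406.6 on the others, a difference of -4.45 ± 0.18 (adjusted p = 4.76e-05). TNFSF10, the death ligand TRAIL, had -3.60 ± 0.14 (adjusted p = 3.67e-05). For treatment 0 of the 41 passed, 12 were lower (29.3%) and 0 higher at an unadjusted p of 0.05, against 7.59% and 5.47% of genes, 32 were below zero, and the median was -0.25. The furthest were TRIM22, a dim antiviral ligase, at -0.75 ± 0.14, and GBP5 at -0.62 ± 0.32. GBP5 was also dim, at 8.01 to 72.6 units, with an interval from -1.39 to 0.16.

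Markers of cell types were read on the same arrays. Of the markers of the line, VIM, CD44, MSN, AXL, CAV1 and EGFR lay far above the array medians on every array, and SPARC, at 43.6 to 368.3 units, did not. On code 1 SPARC (-2.13) and CD44 (-1.25) were lower and VIM (0.46) and MSN (0.68) higher, 28.6% of this list each way. Over genes with 1 probe each, 16.8% were lower on code 1 and 15.3% higher. Of 4 measured genes known as absent or low in the line, ESR1 and CDH1 were dim at 54.6 to 92.5 and 17.9 to 115.3 units, GATA3 was lower on code 1 (-1.40), and EPCAM, at 2234 to 3684 units, lay above the array medians throughout. Other genes than interferon targets also moved with code 1. Of 4 fibroblast genes, 3 were lower (75%), COL1A2 (-4.65), PDGFRB (-2.58) and COL1A1 (-0.47). COL1A2 was dim on code 1, at 11.5 to 31.6 units, so the size of its difference is less certain. COL1A1 was dim on all arrays, at 47.7 to 92.9, and its groups overlapped. The list summed to 238 to 270 units on code 1 and 1332 to 1576 on the others. Of 3 endothelial genes PECAM1 was higher (1.53), or 33.3%, with sums of 305 to 312 and 126 to 181. Of 7 leukocyte genes, CD79A was lower (-0.47), or 14.3%, near the share of all genes, with sums of 899 to 2008 and 1021 to 2514. By level, PTPRC had 7.85 to 17.4 units, CD2 28.6 to 79.3 and ITGAM 44.1 to 114.9. LYZ had 6.93 to 41.5 and NKG7 12 to 123.0 where they had a value. CD3E had 121.8 to 170.4, and CD79A, at 623.7 to 2071, lay above the array medians on every array. Of 2 genes of plasmacytoid dendritic cells IL3RA was lower (-2.03), or 50%, with sums of 36 to 80 and 64 to 116. No marker was listed at 0, though some dim ones had empty cells, and the part of other cells in the code 1 difference was not tested.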

How the data were processed

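The study measured messages in 8 one-colour arrays of MDA-MB-231 cells, 4 with a miR-148b precursor and 4 with a negative control. Per the labels, image analysis used Agilent Feature Extraction 10.5.1.1. How background was treated and arrays normalized is not given in the sources used here. Probe intensity on a linear scale, as deposited by the authors, was used in 1 table of 33446 probes with 0 columns left out. The arrays share their highest value, 243058, so a shift of all messages cannot be seen. Empty cells, in 2864 probes, stayed empty.

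Log2 was taken of the values as they stand, pseudocount 0. Gene names came from GEO's annotation of the platform, brought up to date with RefSeq (GRCh38.p14): 24790 probes had 1 gene, 27 several and 8629 none. limma 3.58.1 in R 4.3.3 (lmFit, eBayes, two-sided) was fitted over all probes with terms for code 1, plus mark and treatment. Benjamini-Hochberg adjustment covered all probes, and every adjusted p, SE and 95% interval comes from this fit unless another is named. A probe enters a term's count only where its values can separate that term. The interaction was tested in a further fit. The scripts were tested on simulated data. Depth has no count here, and the number of arrays limits precision.

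The genes, their roles and the other lists were chosen with earlier results of these data known. Values on each array are given, per role, for the genes with the largest code 1 and the largest treatment difference, and always for IFI27, ISG15, IFIT1, MX1, UBE2L6 and IFITM2. Of other lists, the 2 with the largest differences are named, apart from those said to be named later, and marker lists are given by their called genes. Alternatives changed the scale, pseudocount, filter, probe rule, terms, block and arrays. Figures were drawn with matplotlib 3.10.9.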

Additional observations from a re-analysis of the deposited data

Results flagged for a closer look

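In each treatment group of 4 arrays, and among the 5 arrays without code 1, the gap between the highest or lowest array and its nearest neighbour was divided by the whole range of log2 values. Over 111 such groups, 5 gaps passed the 95% critical value of Dixon's test. That is near the share of about 1 in 20 that chance flags. Of these 5, 4 were control replicate 1, the sole control array of code 1, and each time the low one. The genes of these 4 flags were all called lower on code 1. Their flags repeat that difference and do not add evidence apart from it. The share of the range was 0.957 for IFI27 (227.7 units, against 12534 to 14987 in the other controls), 0.874 for IFITM1 (1594, against 5376 to 6409), 0.864 for GBP1 (2495, against 3692 to 3926) and 0.858 for RSAD2 (25.1, against 331.3 to 507.8). Among miR-148b arrays, replicate 3 stood high for RIGI with a share of 0.888 (7394 units, against 4155 to 4432).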

How the results depend on the processing

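The count of genes lower on code 1 stayed between 17 and 26 in all alternatives. The count higher was 1 in place of 3 with code 1 alone in the fit, with 3 code levels, with the mean of a gene's probes and on the 5 arrays without a plus mark, and 1 to 3 when an array was left out. At 1.5-fold with 16% it was 1 in place of 2 with the mean of a gene's probes and without the dimmest 50% of probes. The code 1 median was -0.83 with code 1 alone and -0.88 on control arrays only. For treatment, 0 genes passed 0.05 in any alternative. GBP3 alone, 1 in place of 0, passed 1.5-fold with 16% with 1 probe per gene, limma's trend, a pseudocount of 50 and without the dimmest 50%.

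Correlations of same-numbered arrays' deviations from their group means over 30582 probes were 0.61, -0.496, 0.589 and 0.664 for replicates 1 to 4, so the numbers do not pair all arrays. With the replicate number as a block and no terms for code 1 and plus mark the treatment median was -0.50, the same as with treatment alone, and over replicates 1, 3 and 4 it was -0.27. The block changed no call. No paired analysis was possible for code 1 because code 1 differs inside replicate 2 alone.

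Treatment signs turned only for genes near zero, and the cause was not tested. With the code as a block they were 0.08 for USP18, -0.21 for OAS2, 0.11 for RIGI and -0.05 for EIF2AK2. USP18 had 0.01 with 3 code levels and in the block over replicates 1, 3 and 4. OAS2 had -0.28 and EIF2AK2 -0.0046 with the full replicate block and with treatment alone. With the mean of a gene's probes OAS2 had -0.04, OAS3 -0.09 and GBP1 0.03. On the 5 arrays without a plus mark OAS3 had -0.07, GBP1 0.0034 and RIGI 0.01. Without the code 1 arrays OAS2 had -0.03 and XAF1 0.09. Leaving out 1 array gave -0.04 to 0.24 for EIF2AK2, -0.08 to 0.03 for GBP1, -0.10 to 0.19 for OAS2, -0.06 to 0.10 for OAS3, -0.32 to 0.03 for RIGI, -0.12 to 0.03 for USP18 and -0.12 to 0.08 for XAF1. On code 1, IFITM2 had -0.07 with code 1 alone, and EIF2AK2 ran over -0.19 to 0.10 without 1 array.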
